A study of Mus musculus with 6 samples.

Results

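A set of 10 genes of antigen presentation was examined in the corneal epithelium of 2-month-old mice, with and without deletion of *Rela*, which encodes a canonical NF-κB subunit. The genes were chosen by symbol from the gene table: *H2-K1*, *H2-D1*, *B2m*, *Tap1*, *Tap2*, *Tapbp*, *Psmb8*, *Psmb9*, *Cd74*, and *H2-Ab1*. They are 10 of the 17554 genes in the table, and all 10 passed the filter on low counts that left 12667 genes for testing. RNA-seq was performed on epithelium from 3 control and 3 mutant samples of C57BL/6 mice. The control samples carry the genotype label WT. The mutant samples are labelled Rela-/- and came from *Krt14-Cre; Rela f/f* mice, in which Cre is driven by the keratin 14 promoter, so that deletion is expected in keratin 14 lineage epithelium and not in stroma or leukocytes. The study describes the samples of each group as independent biological samples, and the labels do not say whether animals were pooled.

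MHC class I molecules, made of a heavy chain and the light chain β2-microglobulin, are carried by almost all nucleated cells and display peptides from proteins made inside the cell. Proteasomes cut these proteins, the TAP transporter moves the peptides into the endoplasmic reticulum, and tapasin helps load them onto class I molecules. MHC class II molecules display peptides from endosomes and are made mainly by dendritic cells, macrophages, and B cells, although epithelial cells can make them when exposed to interferon-γ. NF-κB is among the factors known to bind class I promoters, together with interferon regulatory factors and NLRC5, while CIITA drives the class II genes.

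Of these genes, 8 lie on chromosome 17 (GRCm38), where the MHC is. *Tapbp* spans chr17:33919478-33929290 and *H2-K1* chr17:33996012-34000619 (the latter from RefSeq). *Psmb9* (chr17:34182030-34187330), *Tap1* (chr17:34187556-34197225), *Psmb8* (chr17:34198195-34201454), and *Tap2* (chr17:34204479-34216321) follow each other closely, with *H2-Ab1* at chr17:34263227-34269418 and *H2-D1* at chr17:35263094-35267497. *B2m* is on chromosome 2 (chr2:122147687-122153082).

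The promoters of the class I chains are shown because NF-κB motifs lie in them, and *Rela* is the gene deleted here. Each window runs from 250 bases before to 50 bases after a RefSeq transcription start (GRCm38.p6), 5′ to 3′ on the strand of the gene, and capitals mark matches to the κB consensus or to the interferon response pattern (GAAA, any 2 bases, GAAA) that interferon regulatory factors bind. Both strands were searched, for these exact patterns only. Other forms of an interferon response element were not searched, so lower-case letters do not show that a window lacks one.

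*H2-K1*, chr17:34000298-34000597, minus strand: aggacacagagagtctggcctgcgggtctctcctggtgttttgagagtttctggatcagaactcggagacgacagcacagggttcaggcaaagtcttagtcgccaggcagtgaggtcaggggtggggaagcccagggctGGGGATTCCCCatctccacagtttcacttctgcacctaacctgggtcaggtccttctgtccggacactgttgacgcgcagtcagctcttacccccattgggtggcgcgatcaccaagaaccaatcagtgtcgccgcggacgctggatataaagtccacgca

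*H2-D1*, chr17:35262844-35263143, plus strand: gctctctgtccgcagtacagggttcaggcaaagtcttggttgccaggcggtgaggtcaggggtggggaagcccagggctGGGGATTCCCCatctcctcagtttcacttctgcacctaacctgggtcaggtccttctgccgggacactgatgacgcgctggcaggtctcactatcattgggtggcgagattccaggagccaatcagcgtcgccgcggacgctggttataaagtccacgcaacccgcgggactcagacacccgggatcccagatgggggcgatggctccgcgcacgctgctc

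*B2m*, chr2:122147437-122147736, plus strand: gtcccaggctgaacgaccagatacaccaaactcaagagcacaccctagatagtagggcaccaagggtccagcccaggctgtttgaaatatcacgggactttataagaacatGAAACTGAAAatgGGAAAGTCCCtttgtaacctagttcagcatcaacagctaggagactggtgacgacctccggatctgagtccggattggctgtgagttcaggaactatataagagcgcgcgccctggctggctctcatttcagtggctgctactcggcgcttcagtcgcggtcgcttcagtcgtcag

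In *H2-K1*, a pair of overlapping κB matches covered the run GGGGATTCCCC, which was read from that window and then searched in all others. It stood at bases -111 to -101 from the start of *H2-K1* shown and at -171 to -161 from that of *H2-D1*. From another annotated start of *H2-K1*, whose overlapping window is not shown, it stood at -125 to -115. The run was present in 10 of 32851 mouse promoter windows (0.0304%), among them both *H2-K1* windows and that of *H2-D1*. Over the 228 columns in which the *H2-K1* and *H2-D1* windows shown could be aligned, 206 were identical (90.4%). The *B2m* window held a different κB match, GGGACTTTCC on the minus strand at -126 to -117, next to GAAACTGAAA at -139 to -130. The κB consensus was found in 4.51% of all windows and the interferon response pattern in 3.44%. The windows of *Tap1* and *Psmb9* share 275 bases, since the pair is transcribed in opposite directions from one start region, and neither these nor the windows of *Tapbp* and *Psmb8* held a match to the κB consensus or the interferon response pattern. A match is a description of the letters only. No window was available here for *Tap2* or *H2-Ab1*, and that of *Cd74* is not shown.

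The question for these genes was whether loss of *Rela* changed their mRNA levels. *Rela* itself was at 36.47, 34.71, and 33.43 FPKM (fragment counts scaled by transcript length and library size) in the control samples and at 4.93, 5.53, and 5.72 FPKM in the mutants, a log2 fold change of -2.75 (adjusted p = 5.5e-07). RNA from cells that kept *Rela* and from exons outside the deleted part cannot be told apart in these values. Total expected counts were alike, from 19492942 to 19733834 a sample. Of 8 corneal epithelial markers, 1 was higher and 2 were lower in mutants at an adjusted p under 0.05. Marker counts here and below stand against 7.82% higher and 5.42% lower over all genes tested, and nothing is read from them. *Krt12*, the keratin of corneal epithelium, had a mean of 19690 FPKM in controls and 18270 in mutants (adjusted p = 0.26), while *Krt14*, a keratin of basal cells, was 9.98-fold higher in mutants (adjusted p = 1.1e-05) and *Krt15* and *Aldh3a1* were lower (adjusted p = 0.039 and 0.047). Of 5 conjunctival markers, 4 were tested and 2 were lower (*Krt13* and *Krt8*).

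Stromal transcripts were few but differed: of 8 stromal genes 3 were tested, *Dcn* being higher (3, 2, and 1 counts in controls against 66, 34, and 14 in mutants, adjusted p = 0.0051) and *Pdgfra* lower (adjusted p = 0.0050). *Col1a1* had counts of 1, 1, and 2 against 23, 23, and 6, and *Kera* had 0 to 2 in every sample. Mutant 1 stood apart from the other mutants, at 24.1 on the second principal component against -9.53 and -20.6. Summed counts of 5 neutrophil-associated genes were 94 to 172 in controls and 15435, 3067, and 2270 in mutants 1, 2, and 3. Nearly all of the mutant sums came from *S100a8* and *S100a9*, which epithelium can also make. The others of that list did not rise alike. *Ly6g* had counts of 56, 38, and 71 in controls and 31, 33, and 35 in mutants (log2 fold change -0.74, adjusted p = 0.095 by edgeR). *Csf3r* had 39, 23, and 35 against 31, 39, and 41, and *Mpo* had 0 to 1 in every sample. These marker genes other than *Krt12* and *Kera* were named after their values were seen, and their part in the results that follow was not tested.

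Of the 8 class I and peptide processing genes, 7 had a 95% interval within a 1.5-fold change in either direction. The other was *Psmb9* (log2 fold change -0.27, 95% interval -0.62 to 0.08). The class II genes were low with higher means in the mutants. Of the 10 genes, 0 had an adjusted p under 0.05 in edgeR's quasi-likelihood test, against 13.2% of all genes tested (1678 of 12667). At the stricter thresholds of the study, which require a 2-fold change and an adjusted p no higher than 0.001, 0 of 10 passed, against 1.37%. At an unadjusted p under 0.05 the count was 1 of 10 (*H2-Ab1*), against 28.1%, and DESeq2 also called 0. Without mutant 1 the count at an adjusted p under 0.05 was 1 (*Psmb9*), against 14.6% of all genes. Without mutant 2 it was 1 (*H2-Ab1*), against 9.23%. Values of the genotypes overlapped for all 10, whereas 33.7% of all genes tested had groups that did not overlap. The 95% interval lay within a 2-fold change in either direction for 9 of 10 genes (85.9% of all genes) and within 1.5-fold for 7 of 10 (66.5%). The median log2 fold change was -0.017 over the 10 genes and -0.003 over all genes tested, with 4 of the 10 above 0 and 6 below.

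**Figure D1:**
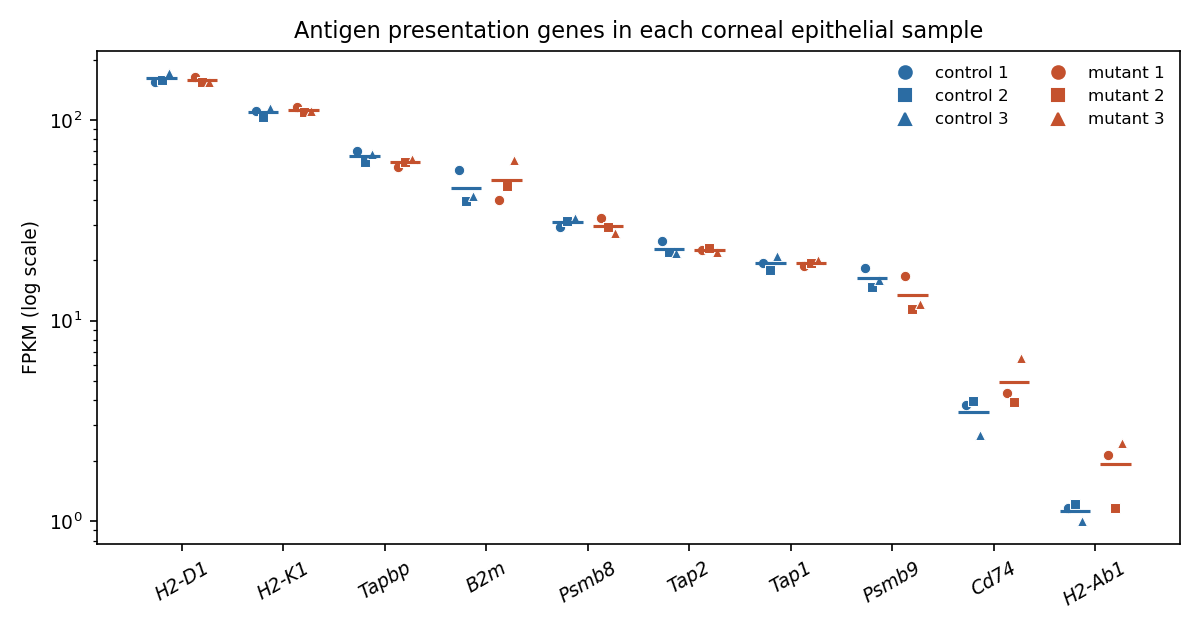
Level of each gene in each sample, in FPKM on a log axis, ordered by the control mean; symbols give the sample number, blue is control, orange is mutant, and bars are group means. The genotypes overlap for every gene, and *Cd74* and *H2-Ab1* lie below the other 8 genes.

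The levels themselves spanned a wide range. By mean FPKM in control samples the order was *H2-D1*, *H2-K1*, *Tapbp*, *B2m*, *Psmb8*, *Tap2*, *Tap1*, *Psmb9*, *Cd74*, and *H2-Ab1*. Neighbours in this order did not overlap over the control samples, except *Tap1* and *Psmb9*. *Tapbp* and *B2m* overlapped in the mutants. *H2-D1* stood at the 97.3 percentile of the genes tested and *H2-K1* at 95.9, while *Cd74* stood at 30.4 and *H2-Ab1* at 16.0.

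*H2-D1*, one of the classical class I heavy chains, was at 154.9, 158.9, and 171.0 FPKM in control samples and at 163.5, 154.4, and 154.1 FPKM in mutant samples (161.6 ± 8.38 against 157.3 ± 5.33, mean ± SD, n = 3). Its log2 fold change was -0.04 (95% interval -0.22 to 0.13, adjusted p = 0.77). All mutant values lay inside the control range or less than 1 FPKM below it.

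*H2-K1*, the other classical heavy chain of this strain, was at 110.9, 102.9, and 114.1 FPKM in controls and at 115.3, 110.1, and 111.0 FPKM in mutants (109.3 ± 5.76 against 112.1 ± 2.79, n = 3). The log2 fold change was 0.03 (95% interval -0.14 to 0.20, adjusted p = 0.83). The groups overlapped, and the lowest value of the 6 was that of control 2.

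Heavy chain genes resemble each other, and reads can be split among them. Of the 50-base windows in annotated transcripts, 9.63% of those of *H2-K1* and 12.8% of those of *H2-D1* also occur in another gene, with 141 windows shared between the pair. Counts were therefore also summed over 21 class I heavy chain genes, which gave 11313, 11169, and 11991 in controls and 11644, 11085, and 11463 in mutants (log2 fold change -0.02, 95% interval -0.18 to 0.15, adjusted p = 0.91). *H2-D1* made up 47.1% and *H2-K1* 31.7% of this sum. Of the nonclassical genes, *H2-T23* gave 8.13%, *H2-T22* 6.46%, and *H2-Q4* 4.64%, named for their share.

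*B2m*, the light chain of class I molecules, varied more between samples than the heavy chains. It was at 56.15, 39.39, and 41.99 FPKM in controls and 39.73, 46.65, and 63.46 FPKM in mutants (45.84 ± 9.02 against 49.95 ± 12.2, n = 3). The log2 fold change was 0.12 (95% interval -0.27 to 0.51, adjusted p = 0.70). Control 1 and mutant 3 were high and the other samples lower, and the coefficient of variation was 19.7% in controls and 24.4% in mutants, against 2.5% to 5.3% for the heavy chains.

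The transport and loading genes each had an interval within a 1.5-fold change. *Tap1*, encoding the first subunit of the peptide transporter, was at 19.43, 17.77, and 20.93 FPKM in controls and 18.63, 19.41, and 20.07 FPKM in mutants, a log2 fold change of -0.01 (95% interval -0.20 to 0.18, adjusted p = 0.97). All mutant values of *Tap1* fell inside the control range. *Tap2*, the partner subunit, was at 24.78, 21.98, and 21.78 FPKM in controls and 22.39, 23.06, and 21.89 FPKM in mutants, and its log2 fold change was -0.03 (95% interval -0.20 to 0.15, adjusted p = 0.86). Here too the mutants lay inside the control range.

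*Tapbp*, encoding tapasin, was at 70.30, 61.82, and 67.26 FPKM in controls and 58.41, 61.76, and 63.90 FPKM in mutants. The log2 fold change was -0.12 (95% interval -0.29 to 0.05, adjusted p = 0.35). Only mutant 3 lay inside the control range, the other mutants just under it or lower. Other genes, mostly on the opposite strand, overlap several of these loci: 29.0% of the exon bases of *Tapbp*, 18.5% of *Tap2*, and 14.7% of *Psmb8* are also exon of another gene. Whether reads were counted by strand is not given in the sources used here, so reads from such partners cannot be told apart.

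*Psmb8* and *Psmb9* encode catalytic subunits of the immunoproteasome, which replace constitutive subunits and change which peptides are cut. *Psmb8* was at 29.30, 31.19, and 32.47 FPKM in controls and 32.35, 29.33, and 27.43 FPKM in mutants, with a log2 fold change of -0.06 (95% interval -0.27 to 0.14, adjusted p = 0.70). *Psmb9* was at 18.37, 14.74, and 15.84 FPKM in controls and 16.67, 11.39, and 12.11 FPKM in mutants, with a log2 fold change of -0.27 (95% interval -0.62 to 0.08, adjusted p = 0.30). Mutants 2 and 3 were below all controls for *Psmb9*, while mutant 1 lay among them. Without mutant 1 the log2 fold change of *Psmb9* was -0.46 with an adjusted p of 0.046 by the same test.

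**Figure D2:**
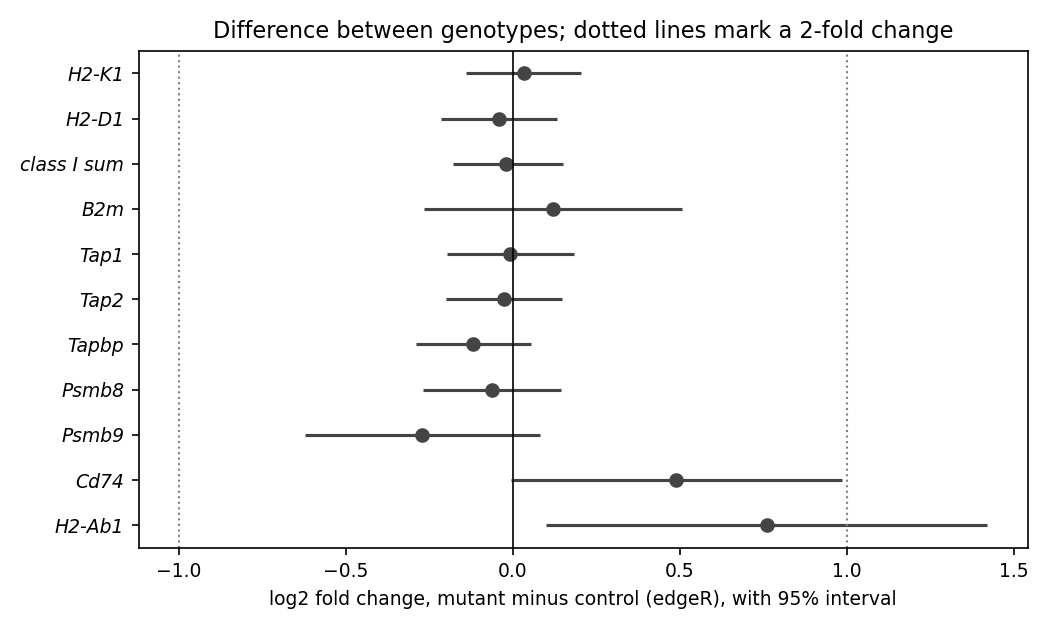
Log2 fold change of each gene, mutant minus control, with a 95% interval derived from the edgeR fit. The row for class I is the sum over 21 heavy chain genes. Intervals of the class I and processing genes span 0, with those of *B2m* and *Psmb9* the widest among them. Those of *Cd74* and *H2-Ab1* are wider still. The interval of *Cd74* just crosses 0, and that of *H2-Ab1* lies above it, at an adjusted p of 0.13 by edgeR.

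Each immunoproteasome subunit takes the place of one constitutive subunit, so their FPKM ratio was taken within each sample. *Psmb8*/*Psmb5* was 0.636, 0.696, and 0.741 in controls and 0.617, 0.626, and 0.487 in mutants (difference -0.27 on the log2 scale). *Psmb9*/*Psmb6* was 0.322, 0.271, and 0.259 in controls and 0.225, 0.200, and 0.203 in mutants (difference -0.44 on the log2 scale). For both pairs every mutant lay below every control.

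The third pair did not follow: *Psmb10*/*Psmb7* was 0.236, 0.175, and 0.186 in controls and 0.220, 0.222, and 0.231 in mutants (difference 0.19 on the log2 scale, exact permutation p = 0.4, overlapping groups). The 2-sided exact permutation p was 0.1 for each of the first pairs, the smallest that 3 against 3 allows, and 0.15 after adjustment over the 3 ratios, so this test cannot place these differences under 0.05. Neither the constitutive nor the immunoproteasome subunits of these pairs passed the test on their own: log2 fold changes were 0.21 for *Psmb5* (adjusted p = 0.13) and 0.14 for *Psmb6* (adjusted p = 0.45). Of the windows of *Psmb5*, 54.1% also occur in another gene, 46.8% in the gene model Gm3375, although its expected counts were whole numbers in 6 of 6 samples (tolerance 0.005).

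**Figure D3:**
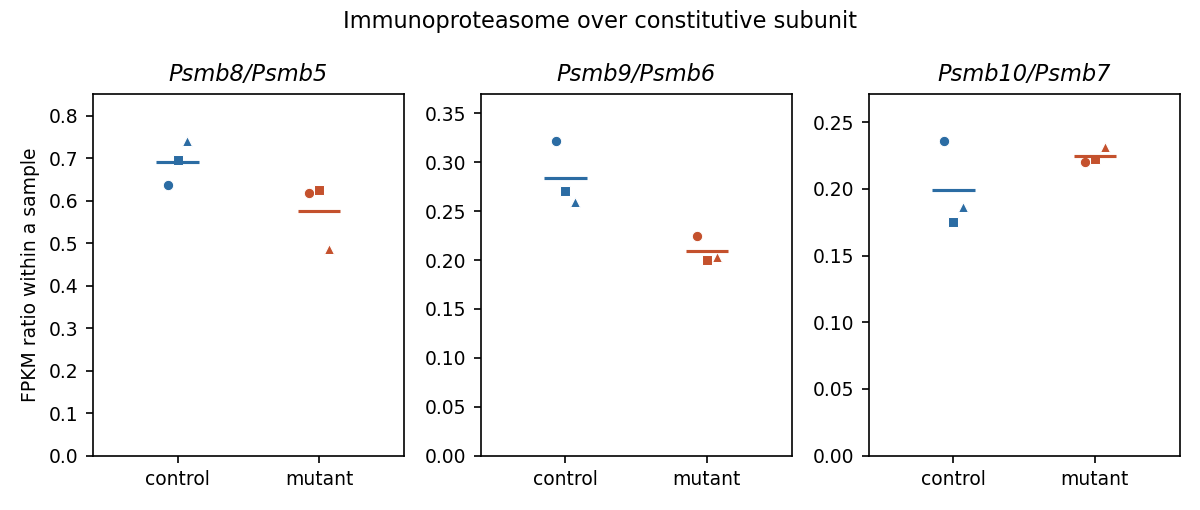
FPKM ratio of an immunoproteasome subunit to the constitutive subunit it replaces, per sample, with the group mean as a bar; the y axes start at 0. For *Psmb8*/*Psmb5* and *Psmb9*/*Psmb6* the 3 mutants lie under the 3 controls, and for *Psmb10*/*Psmb7* the groups overlap.

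The class II genes were low in all samples. *Cd74*, the invariant chain that guides class II molecules to endosomes, was at 3.80, 3.97, and 2.70 FPKM in controls and 4.37, 3.92, and 6.54 FPKM in mutants, on 65 to 159 counts. The log2 fold change was 0.49 (95% interval -0.00 to 0.98, adjusted p = 0.18). Mutant 3 was the highest sample, and mutant 2 lay inside the control range.

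*H2-Ab1*, the β chain of the class II molecule I-A, was at 1.17, 1.22, and 1.00 FPKM in controls and 2.14, 1.17, and 2.46 FPKM in mutants, on 23 to 57 counts. The log2 fold change was 0.76 (95% interval 0.10 to 1.42, adjusted p = 0.13), or 1.69-fold (1.07 to 2.68). Mutants 1 and 3 were above all controls and mutant 2 was at the control level. Without mutant 2 the log2 fold change was 1.01 with an adjusted p of 0.037 by the same test.

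The class II chain genes *H2-Aa* and *H2-Eb1*, which were singled out after their values were seen, also had mutant 2 as the lowest mutant. *H2-Aa*, the α chain of I-A, had counts of 33, 20, and 27 in controls and 56, 22, and 49 in mutants, a log2 fold change of 0.66 (adjusted p = 0.26). *H2-Eb1* had counts of 29, 27, and 21 in controls and 41, 18, and 49 in mutants, a log2 fold change of 0.48 (adjusted p = 0.42). In these 4 class II genes, mutants 1 and 3 were above mutant 2, and 0 of 4 passed the test. The tested class II exchange factors differed from them. *H2-DMb1* had counts of 48, 37, and 52 in controls and 42, 65, and 72 in mutants, with mutant 1 the lowest. *H2-DMa* had 69, 48, and 64 in controls and 50, 49, and 56 in mutants, a log2 fold change of -0.23. *Ciita* had 0 to 7 counts in every sample and was under the filter.

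Class II molecules mark professional antigen-presenting cells, so leukocyte genes were read in the same samples. *Ptprc*, encoding CD45, had counts of 6, 6, and 1 in controls and 14, 2, and 9 in mutants, with mutant 2 the lowest mutant, whereas *Cd52*, of the same list, had 18, 22, and 14 in mutants, with mutant 2 the highest. The summed count of 5 leukocyte genes was 39, 32, and 27 in controls and 90, 52, and 51 in mutants. Of the 2 that could be tested 1 was higher in mutants, against 7.82% of all genes (*Laptm5*, adjusted p = 0.045, named, like *Cd52*, after its value was seen). Defining markers were at or near 0: *Adgre1*, a macrophage marker, had 1 to 3 counts, *Cd207*, of Langerhans cells, 0 to 2, and *Cd3e*, of T cells, 0 to 5. *Itgax*, of dendritic cells, had 5 to 16 counts in controls and 4 to 14 in mutants, and *Csf1r* 6 to 16 and 7 to 16.

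Summed counts of 6 T and NK cell genes were 24, 25, and 12 in controls and 30, 20, and 22 in mutants, and those of 3 B cell genes were 17, 8, and 14 against 18, 16, and 18. The 15 macrophage and dendritic cell genes summed to 6768, 6481, and 6927 against 9654, 6793, and 5537, most of it from *Itgam*, *Cd68*, and *Ctss*. The other 12 summed to 115, 98, and 88 against 171, 124, and 131, with *Cd14* higher in mutants (adjusted p = 0.048, also named after its value was seen). Of these 12, 4 could be tested, and 3 of the 4 had a log2 fold change below 0. Some genes under the filter, likewise named after their values were seen, had more counts in mutants. *Lyz2* had 0, 0, and 1 against 24, 13, and 4, and *Fcer1g* 1, 5, and 4 against 9, 7, and 10. *Cd53*, of the leukocyte list, had 4, 2, and 5 against 14, 6, and 8. The 4 Langerhans cell genes summed to 1047, 1092, and 1065 against 646, 865, and 1073, nearly all from *Mfge8* (1027, 1075, and 1047 against 618, 850, and 1054), which is not limited to these cells. The part of such cells in the class II values was not tested, and in bulk RNA a change in the number of cells of a type and a change in RNA per cell cannot be told apart.

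**Figure D4:**
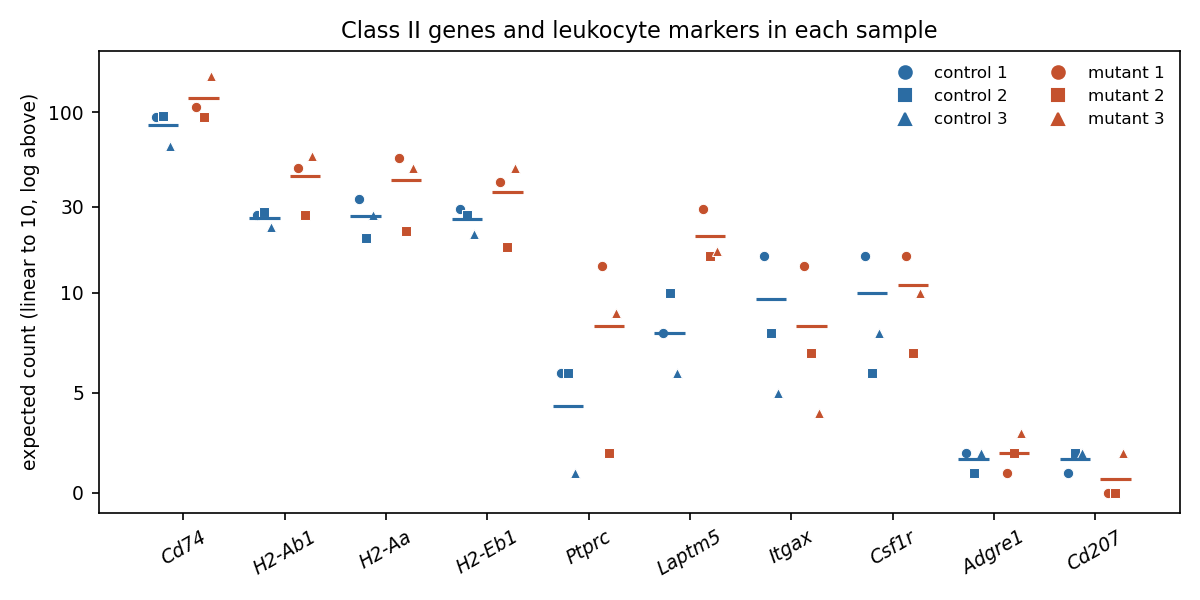
Expected counts of 4 class II genes and 6 leukocyte markers per sample, on an axis that is linear to 10 and logarithmic above; symbols give the sample number and bars are group means. Mutants 1 and 3 lie above mutant 2 for the class II genes, and *Adgre1* and *Cd207* stay at 3 counts or fewer.

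The wider pathway was then examined. KEGG annotation in the gene table places 81 genes in antigen processing and presentation, 8 of the 10 among them. Of the other 73 genes, 48 could be tested, and 3 were higher and 2 lower in mutants at an adjusted p under 0.05. This is 10.4% of those tested, near the 13.2% of all genes, of which 7.82% were higher and 5.42% lower. Their median log2 fold change was 0.042, and 0 passed the thresholds of the study.

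Apart from *Ctsl*, these 5 genes were named after their values were seen. *Hspa8*, a cytosolic chaperone, rose from 209.9 ± 17.4 to 315.4 ± 13.7 FPKM (log2 fold change 0.58, adjusted p = 0.0018, n = 3), and *Hsp90aa1*, another chaperone, rose with a log2 fold change of 0.44 (adjusted p = 0.0027). *Ctsl*, a cathepsin of the endosomal route that degrades the invariant chain in some cells, rose from 344.4 ± 16.1 to 492.8 ± 55.6 FPKM (0.51, adjusted p = 0.0082, or 0.051 without control 2). *Tnf*, a cytokine listed in the pathway as an inducer, fell from 6.69 ± 0.523 to 2.01 ± 1.14 FPKM (-1.73, adjusted p = 0.010), with mutant 3 the lowest at 0.77 FPKM. *Hspa1b*, an inducible chaperone, fell with a log2 fold change of -0.41 (adjusted p = 0.038). The call of *Hspa1b* was lost without any one of the controls or mutant 2 (adjusted p = 0.073 to 0.14). Without control 2, 3 of the other pathway genes passed, while the share of all genes called fell from 13.2% to 6.66%.

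**Figure D5:**
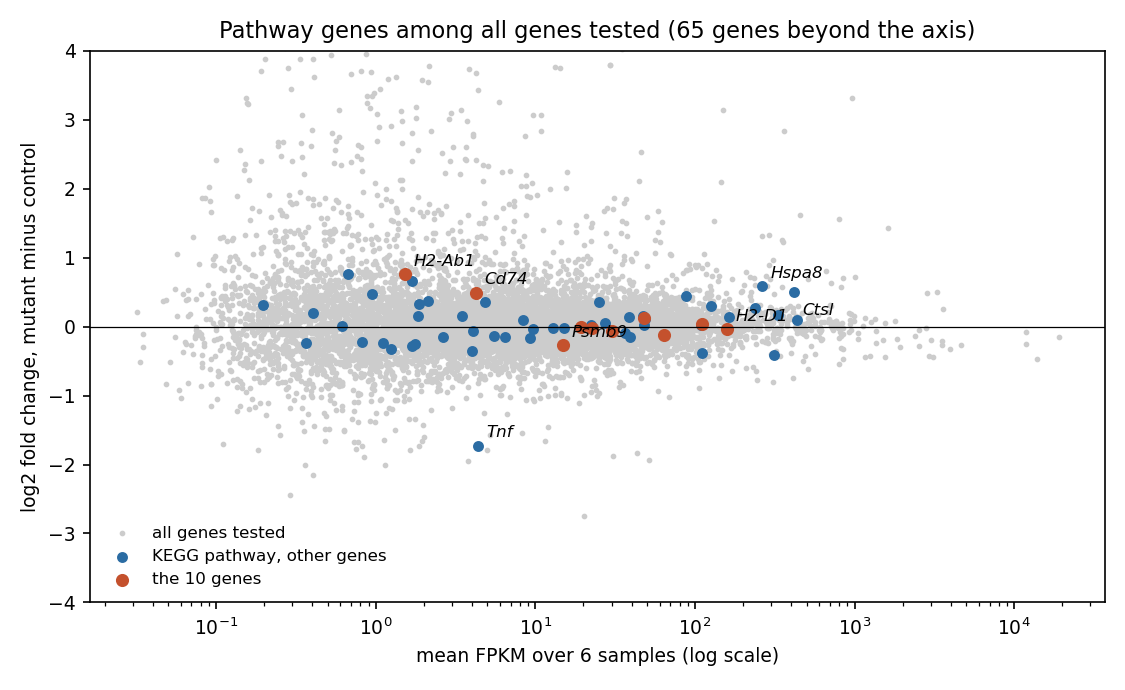
Log2 fold change, mutant minus control, against mean FPKM over the 6 samples (log axis) for all 12667 genes tested, with 65 genes beyond the vertical axis; blue marks the other 48 KEGG pathway genes and orange the 10 genes. The 10 genes lie near 0 except *Psmb9* (-0.27), *Cd74*, and *H2-Ab1*, and *Tnf* lies apart from the pathway at -1.73.

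Genes of the steps around the 10 were read as short lists. Each count stands against 7.82% higher and 5.42% lower over all genes, and with lists this short nothing is read from the counts themselves. Of 13 genes for peptide loading and trimming, 2 rose: *Npepps*, a cytosolic aminopeptidase, with a log2 fold change of 0.46 (adjusted p = 0.0048), and *Hsp90b1*, a chaperone of the endoplasmic reticulum, with 0.32 (adjusted p = 0.038). The call of *Hsp90b1* was lost when any sample but mutant 3 was left out (adjusted p = 0.056 to 0.13). The median of that list was 0.203. Of 6 genes for the immunoproteasome and its activator and 3 constitutive subunits, 0 passed; *Psme1*, an activator subunit, was at 0.29 on the log2 scale (adjusted p = 0.081, or 0.0074 without mutant 1), and *Psmb7* at 0.09 (adjusted p = 0.59).

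Of 8 class II chains and exchange factors 4 could be tested and 0 passed, and *H2-DMb1*, which helps exchange peptides, was at 0.38 on the log2 scale (adjusted p = 0.36). Of 9 endosomal genes 8 could be tested, with *Ctsl* higher and *March8*, a ubiquitin ligase that lowers surface class II, lower (-0.46, adjusted p = 0.0086). The median of the endosomal list was 0.291.

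Of 20 transcription factors that act on MHC genes, 19 could be tested, and 3 were higher and 1 lower in mutants, where 13.2% of all genes were called. The lower one was *Rela*. *Rel*, encoding another NF-κB subunit, rose with a log2 fold change of 0.51 (adjusted p = 0.0089) and *Nfkb1*, encoding its p105 and p50 subunits, with 0.44 (adjusted p = 0.017, or 0.059 to 0.074 when a control was left out). *Nlrc5*, the activator of class I genes, rose on few counts: 7, 5, and 7 in controls and 19, 21, and 21 in mutants (log2 fold change 1.66, 95% interval 0.93 to 2.38, adjusted p = 0.0093). On the log2(FPKM + 1) scale with limma the adjusted p of *Nlrc5* was 0.19, and without control 2 it was 0.052 by edgeR. *Irf1*, which acts downstream of interferons, was at 0.07 on the log2 scale (adjusted p = 0.77).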

How the data were processed

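Epithelium was removed from corneas and total RNA extracted. The authors aligned reads with Bowtie2 2.2.5 and quantified genes with RSEM 1.2.12. They deposited expected counts and FPKM for 3 control and 3 mutant samples, plus group means and their own fold changes and p-values, which were not used here. A build of mm9 is named in the submitters' processing notes, whereas chromosome accessions in the table are those of GRCm38.

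Expected counts were rounded and tested with edgeR 4.0.16 (R 4.3.3, TMM, quasi-likelihood, filterByExpr with a minimum count of 10 and total of 15). P-values were adjusted over all 12667 genes by the Benjamini-Hochberg method. In simulated counts with known changes, edgeR called 45 of 67 genes changed 1.5-fold, 61 of 67 changed 2-fold, and 66 of 66 changed 4-fold. It also made 18 false calls among 12568 genes at an adjusted p under 0.05. A library's 3 counts equal 0.152 to 0.154 CPM, and intervals cover the spread between these samples, which may be technical. Shared windows used GENCODE M21 transcripts and a 50-base length; promoters came from RefSeq.

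Alternatives were upper-quartile scaling, library totals alone, DESeq2 1.42.0, other filters, limma 3.58.1 on log2(FPKM + 1) and log2(FPKM + 0.1), a replicate block, and leaving out each sample. Members and lists were chosen with earlier results of these data known. Named genes are the 10 genes, up to 4 genes of each list past an adjusted p of 0.05 (or its highest in FPKM), fixed markers, *Nlrc5*, *Ciita*, *Irf1*, and *Rela*; 1 further gene of this rule is not reported here.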

Additional observations from a re-analysis of the deposited data

How the results depend on the processing

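The 10 genes gave 0 calls at an adjusted p of 0.05 under every alternative run with all 6 samples. Leaving out 1 sample gave 0 to 1 calls: 1 without mutant 1 (*Psmb9*, log2 fold change -0.46, adjusted p = 0.046) and 1 without mutant 2 (*H2-Ab1*, 1.01, adjusted p = 0.037). Of all genes, 14.6% were called without mutant 1 and 9.23% without mutant 2. The other KEGG pathway genes gave 5 calls, 8 with DESeq2, and 3 to 7 when 1 sample was left out, the lowest without control 2. Of all genes, 13.2% were called in the main test, 13.0% with DESeq2, and 6.66% without control 2. The summed class I count ranged from -0.044 to 0.028 when 1 sample was left out.

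Values near 0 changed sign in single settings. *Tap1* was at 0.002 with limma on both log scales. With 1 sample left out, *H2-K1* ranged from -0.019 to 0.080, *H2-D1* from -0.081 to 0.014, *B2m* from -0.077 to 0.280, *Tap1* from -0.074 to 0.065, *Tap2* from -0.062 to 0.025, *Psmb8* from -0.136 to 0.001, and *Irf1* from -0.073 to 0.181. The adjusted p of *Nlrc5* was 0.19 and 0.070 with limma and 0.052 without control 2, and that of *Ctsl* was 0.051 without control 2. *Hsp90b1*, *Hspa1b*, and *Nfkb1* lost their call in several of these settings, and *Psme1* gained one with DESeq2 (adjusted p = 0.043). The causes were not tested.

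Same-numbered samples did not deviate together over all genes tested (r = 0.019, 0.048, and -0.046), so no pairing by number was seen. A pairing that touched few genes could be missed by this measure. With a replicate block the 10 genes gave 0 calls, the KEGG genes 5, and all genes 1419. The depth limits the class II genes, *Nlrc5*, and leukocyte markers, which rest on few counts.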
